A study of Mus musculus with 13 samples.

Results

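Collagen chains are modified and folded in the endoplasmic reticulum before they leave the cell, and the genes described here encode 10 of the enzymes and chaperones that do this. They were chosen by name, with earlier results of these data known. Among them are the prolyl 4-hydroxylase subunits P4ha1 and P4ha2, the lysyl hydroxylases Plod1, Plod2 and Plod3, and Crtap of the prolyl 3-hydroxylation complex. The others are the FK506-binding prolyl isomerases Fkbp10, Fkbp9 and Fkbp14, and the collagen chaperone Serpinh1. All 10 were matched by Ensembl identifier among the 34857 genes measured, and all 10 passed the filter on low values at both passages. Prolyl 4-hydroxylases hydroxylate prolines along the collagen chain, which lets the triple helix hold at body temperature, and lysyl hydroxylases make the hydroxylysines used for sugar attachment and crosslinks. Both enzyme families use oxygen, iron and 2-oxoglutarate. Prolyl isomerases turn proline bonds so that the helix can close, and Serpinh1 (HSP47) binds the finished helix until it leaves the endoplasmic reticulum.

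The libraries came from Neuro2a, a mouse neuroblastoma cell line, and the study asked how cells that lived through a failed cryostorage differ from cells kept frozen. DMSO at 10%, a cryoprotectant, was in the freezing medium of every vial. The vials of the experimental groups were left while their liquid nitrogen evaporated over 10 h, were held for 24 h at 4 °C, refrozen at -80 °C for 72 h and thawed at 37 °C, whereas control vials remained in normal cryostorage until the thaw. Poly(A) RNA was taken at passage 1 (4 experimental and 3 control libraries) and at passage 6 (3 experimental and 3 control libraries), and levels were deposited as FPKM, a fragment count divided by transcript length and by the library's mapped fragments. The groups model 1 cell line and 1 way of failing. The labels do not say whether libraries of a group came from separate vials or dishes, so the p-values measure only the spread between these libraries, which may be technical.

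Of 14 neuroblastoma markers, 11 reached 1 FPKM in every library, among them the intermediate filament gene Prph. Sequencing depth is unknown. A library held 12014 to 12467 genes at 1 FPKM or more, and transcripts of the mitochondrial genome made up 12.3% to 27.4% of summed FPKM. Several libraries stood apart in transcripts of other tissues. The 20 colon epithelium markers summed to between 8.45 and 265 FPKM in experimental and between 296 and 668 FPKM in control libraries of passage 1. The passage 6 sums of these markers were 143, 7.48 and 8.32 FPKM in experimental libraries, against 161, 300 and 345 FPKM in control libraries, so they were lower in every experimental library at both passages. Their part in the passage 6 results was not tested. At passage 6 the 14 liver markers summed to 236 and 189 FPKM in experimental libraries 2 and 3 and to at most 1.02 FPKM in each of the other 11 libraries, and the 12 brain markers summed to 133 and 119 FPKM in those libraries and to at most 59.7 FPKM elsewhere. The 14 cartilage markers were low in passage 1 experimental library 4 and control library 1, as given beside Serpinh1. Each result on the 10 genes whose call changed when these libraries were left out is given beside the gene.

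At passage 1, 6 of the 10 genes rose in experimental libraries and 0 fell, where rose and fell mean an adjusted p under 0.05 in limma's test over all genes. At an unadjusted p under 0.05 the counts were also 6 and 0. The 6 were P4ha1, Plod1, Plod2, Fkbp10, Fkbp9 and Fkbp14. Of all 12469 genes tested at that passage, 30.4% changed, 11.5% upwards and 18.9% downwards. The same 6 were the genes whose experimental libraries all lay above every control, against 15.8% of all genes above, 26.9% below and 42.6% without overlap in either direction. The median log2 change, experimental minus control, was 0.30 over the 10 genes and -0.05 over all genes tested. The 10 genes were chosen with earlier results of these data known, so these shares describe them and do not test the set. At passage 6, 3 of the 10 rose (Fkbp10, Fkbp9 and Crtap) and 3 fell (P4ha1, P4ha2 and Plod2), against 8.98% and 10.8% of the 12458 genes tested, or 19.8% in either direction. There the groups did not overlap in 7 of the 10 genes, 4 with experimental libraries above and 3 below, against 17.4% above, 24.3% below and 41.7% in all over the genes tested. The median log2 change there was 0.10 over the 10 genes and -0.04 over all genes tested. The split of the calls over all genes at passage 1 depended on scaling: 1434 genes rose and 2358 fell as deposited, and 1862 rose and 1740 fell with median-of-ratios scaling, under which the same count of 6 enzyme genes rose. In bulk RNA, fewer cells that express a gene and less RNA of it per cell cannot be told apart.

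**Figure D1:**
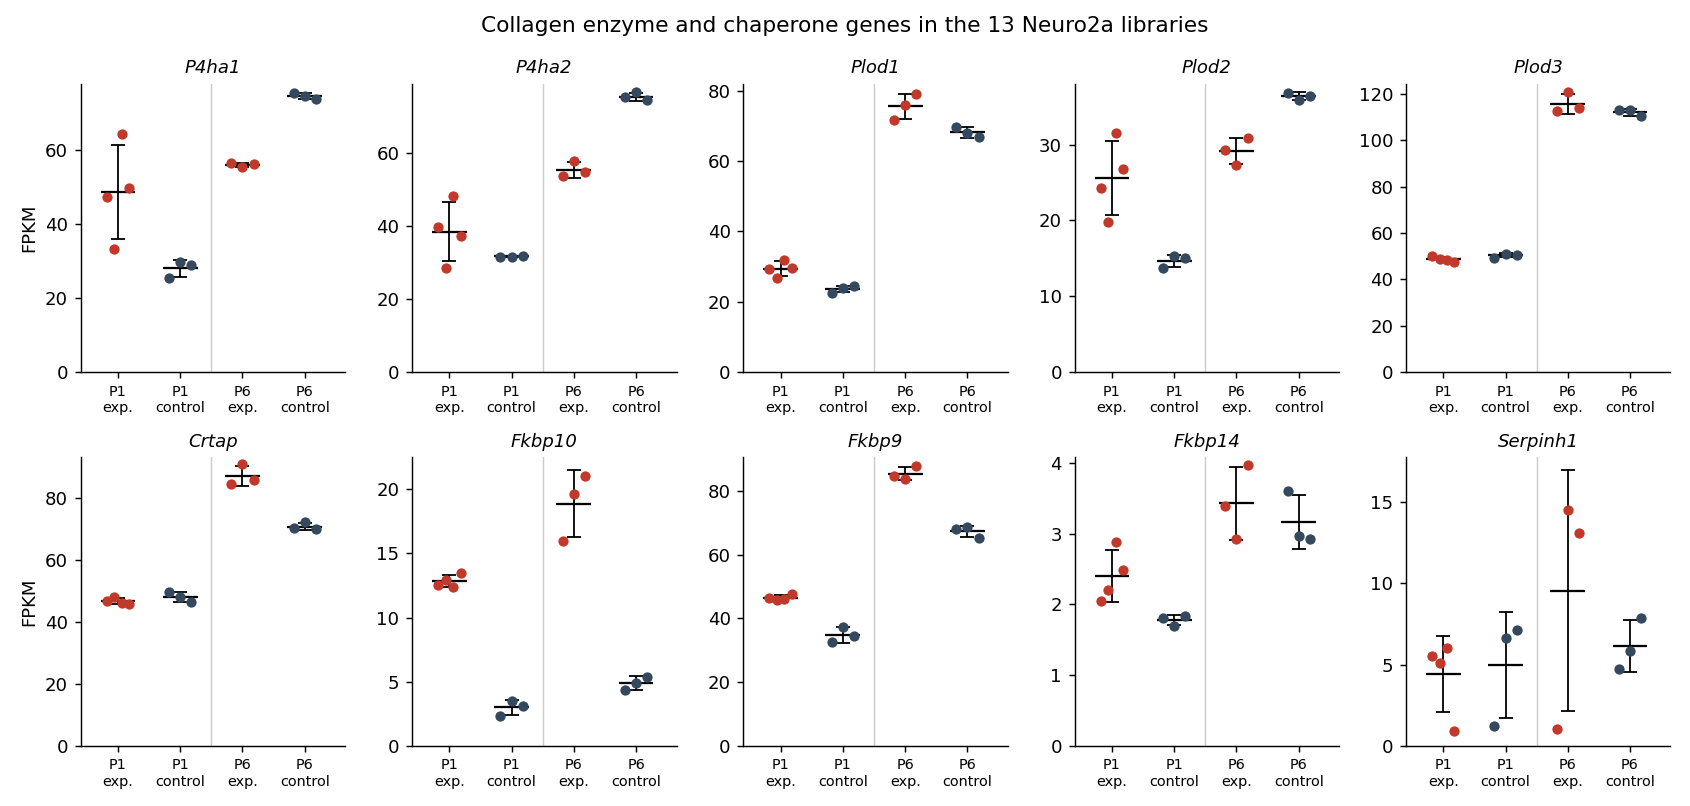
FPKM of each of the 10 genes in every library, with points for libraries, the horizontal bar for the group mean and the error bar for 1 SD. P1 and P6 are passages 1 and 6, and exp. is experimental. Fkbp10 in experimental libraries stood above every control library at both passages, while P4ha1 and Plod2 in experimental libraries stood above the controls at passage 1 and below them at passage 6.

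The levels differed widely between genes. FPKM are scaled by transcript length, so they can be set side by side. Plod3, which also carries the glycosyltransferase activities that add sugars to hydroxylysine, had the highest mean in all 4 groups. It averaged 48.7 ± 1.02 FPKM (SD, n = 4) in experimental and 50.3 ± 0.84 FPKM (SD, n = 3) in control libraries of passage 1, and 116 ± 4.40 FPKM and 112 ± 1.59 FPKM in experimental and control libraries of passage 6 (SD, n = 3 each). The passages were deposited as separate tables, so levels were tested only within a passage. In passage 1 experimental libraries, Plod3, P4ha1, Crtap, Fkbp9, P4ha2, Plod1 and Plod2 followed each other in that order with ranges that overlapped from one neighbour to the next. Fkbp10 lay below them at 12.8 ± 0.49 FPKM, and Serpinh1 and Fkbp14, whose ranges overlapped, were lowest. In passage 1 control libraries Serpinh1 stood before Fkbp10 with overlapping ranges, and Fkbp14 was lowest at 1.78 ± 0.07 FPKM (SD, n = 3). Fkbp14 was the lowest of the 10 in every group.

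The largest difference between the passages was in P4ha1. This gene (ENSMUSG00000019916, GRCm38 chr10:59323296-59373304, plus strand) encodes a catalytic subunit of the collagen prolyl 4-hydroxylase, which works as a tetramer with the disulfide isomerase P4hb. P4ha1 was at 47.3, 33.3, 64.2 and 49.6 FPKM in the 4 experimental libraries of passage 1, against 25.4, 29.7 and 28.8 FPKM in the 3 control libraries. All 4 experimental libraries lay above the controls, with experimental library 2 nearest to them. The log2 change was 0.74 ± 0.19 (SE), a 1.67-fold rise on the FPKM + 1 scale with an adjusted p of 0.0194. That call rested on few libraries: without control library 1, 2 or 3 the adjusted p was 0.0729, 0.0521 and 0.057, and without experimental library 4 it was 0.0504. It was 0.147, with a log2 change of 0.66, among the libraries that carry cartilage transcripts (experimental 1 to 3 and control 2 and 3). With the sums of colon and cartilage markers as covariates it was 0.0652, with a log2 change of 0.45. It was 0.0696 with no filter on low values, and the call was also lost with the replicate number as a block.

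At passage 6 the same gene lay on the other side of its controls. P4ha1 was at 56.4, 55.3 and 56.0 FPKM in experimental libraries, against 75.4, 74.4 and 73.6 FPKM in control libraries. The groups did not overlap and each varied little. The log2 change was -0.41 ± 0.04 (SE; adjusted p = 0.00218), and -0.39 with experimental library 1 as the only experimental library. A lone library gives no spread of its group, so only the size is given for such fits within passage 6. In 1 fit over all 13 libraries the adjusted p of the passage 6 change was 0.0852. Tested directly, the passage 6 change minus the passage 1 change was -1.15 ± 0.22 (SE) on the log2 scale with an adjusted p of 0.00606. It kept its call in each of the 24 alternatives tried.

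P4ha2 (ENSMUSG00000018906, chr11:54100095-54131665, plus strand) encodes the alternative catalytic subunit. P4ha2 was at 39.7, 28.6, 48.1 and 37.2 FPKM in passage 1 experimental libraries, against 31.6, 31.5 and 31.8 FPKM in control libraries. Experimental library 2 lay below the controls and the other 3 above them, so the groups overlapped. The log2 change of 0.25 ± 0.15 (SE) did not pass the test (adjusted p = 0.227), and without experimental library 2 it was 0.38 with an adjusted p of 0.0189. At passage 6, P4ha2 was at 53.5, 57.8 and 54.7 FPKM in experimental libraries, against 75.2, 76.5 and 74.4 FPKM in control libraries. Every experimental library lay below every control, the log2 change was -0.44 ± 0.05 (SE) and the adjusted p was 0.00249. The difference between the passages was -0.69 ± 0.17 (SE; adjusted p = 0.022). It missed the threshold with no filter (adjusted p = 0.0703), without passage 6 control library 2 (0.0511) and with the replicate number as a block. It also missed it without passage 6 experimental libraries 2 and 3, a fit that leaves a lone library in that group.

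The partner subunit P4hb did not pass the test at either passage. P4hb was at 238 to 293 FPKM in passage 1 experimental libraries and 251 to 260 FPKM in control libraries, with a log2 change of 0.09 (adjusted p = 0.366). At passage 6 it was at 472 to 488 FPKM in experimental and 475 to 482 FPKM in control libraries, with a log2 change of -0.01 (adjusted p = 0.945). Its level was far above that of either catalytic subunit in every library.

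ACGTG is a form of the core of the hypoxia response element, through which hypoxia-inducible factors are known to act on P4ha1 and P4ha2. Promoters of both catalytic subunits are therefore shown, with that of Crtap, which rose at passage 6 where they fell. Each runs 5′ to 3′ on the gene's strand from 250 bases before to 50 bases after the RefSeq start on GRCm38.p6, with capitals for ACGTG or its reverse complement CACGT. They lie at chr10:59323046-59323345 (plus strand), chr11:54100674-54100973 (plus strand) and chr9:114390663-114390962 (minus strand).
P4ha1: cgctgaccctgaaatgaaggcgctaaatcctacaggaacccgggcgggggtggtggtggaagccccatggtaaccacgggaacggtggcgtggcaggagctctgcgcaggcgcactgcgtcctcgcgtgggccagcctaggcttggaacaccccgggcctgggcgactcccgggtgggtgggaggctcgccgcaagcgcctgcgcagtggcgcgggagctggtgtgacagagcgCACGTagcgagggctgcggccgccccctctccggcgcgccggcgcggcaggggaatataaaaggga
P4ha2: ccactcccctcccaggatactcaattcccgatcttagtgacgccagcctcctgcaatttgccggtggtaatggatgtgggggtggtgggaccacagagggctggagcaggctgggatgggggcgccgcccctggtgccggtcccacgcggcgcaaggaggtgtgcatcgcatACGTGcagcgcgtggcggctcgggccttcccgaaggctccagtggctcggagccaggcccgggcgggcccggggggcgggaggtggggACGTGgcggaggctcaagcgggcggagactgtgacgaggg
Crtap: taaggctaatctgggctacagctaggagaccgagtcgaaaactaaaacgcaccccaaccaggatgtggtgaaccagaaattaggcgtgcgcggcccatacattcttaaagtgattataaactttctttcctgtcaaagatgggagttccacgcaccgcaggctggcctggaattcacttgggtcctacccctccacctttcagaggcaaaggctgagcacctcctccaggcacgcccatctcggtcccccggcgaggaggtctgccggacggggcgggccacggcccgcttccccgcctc
The P4ha1 window held 1 match, beginning 16 bases before the start on the other strand, and the P4ha2 window held 2, beginning 78 bases before and at base 11 of the transcript. No ACGTG match fell in the Crtap window. The form of the core that begins with G, GCGTG, was not searched, and each printed window holds it in lower case. The windows are therefore not told apart by the core as a whole.

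RefSeq promoters were matched for 8 of the 10 genes, with 2 promoters for Fkbp14. Fkbp10 and Plod2 had no matched promoter, so nothing below applies to them. ACGTG on either strand was also found for Plod3, Fkbp9, Serpinh1 and the second Fkbp14 promoter, which means that genes with and without a change carried it, and it occurs in 19.6% of all 32851 promoters of this length. TGANTCA, the AP-1 pattern, was in 7.81% of promoters and in none of these. GAANNTTC, a pair of heat shock element units, was in 7.86% of promoters and in that of Plod1, beginning at base 43 of the transcript. The ER stress element was in 0.119% of promoters and in none of these. These matches are letters in a window, not measured binding.

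Among the lysyl hydroxylases, Plod2 moved with P4ha1. Plod2 (ENSMUSG00000032374, chr9:92542223-92608428, plus strand) hydroxylates lysines in the telopeptides, the chain ends where stable collagen crosslinks form. Plod2 was at 24.3, 19.8, 31.5 and 26.7 FPKM in passage 1 experimental libraries, against 13.7, 15.3 and 15.0 FPKM in control libraries. All experimental libraries lay above the controls, library 2 lowest and library 3 highest, as for P4ha1. The log2 change was 0.75 ± 0.13 (SE; adjusted p = 0.00535), and it was 0.68 with an adjusted p of 0.0701 among the libraries with cartilage transcripts. At passage 6, Plod2 was at 29.4, 27.3 and 30.8 FPKM in experimental libraries, against 36.9, 35.9 and 36.5 FPKM in control libraries. The groups did not overlap, with experimental libraries below, and the log2 change was -0.31 ± 0.05 (SE; adjusted p = 0.011). Without control library 1, 2 or 3 that adjusted p was 0.056, 0.0521 and 0.0544, and in 1 fit over all libraries it was 0.0754. The passage 6 change minus the passage 1 change was -1.06 ± 0.16 (SE) with an adjusted p of 0.00198, and it too passed in all 24 alternatives.

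Plod1 (ENSMUSG00000019055, chr4:147909753-147936767, minus strand) hydroxylates lysines within the helical part of the chain. Plod1 was at 29.3, 26.7, 32.0 and 29.6 FPKM in passage 1 experimental libraries, against 22.5, 23.8 and 24.4 FPKM in control libraries. The experimental libraries lay above without overlap, by a log2 change of 0.31 ± 0.06 (SE; adjusted p = 0.00995). Among the libraries with cartilage transcripts it was 0.27 with an adjusted p of 0.108. At passage 6, Plod1 was at 71.7, 76.0 and 78.9 FPKM in experimental libraries, against 69.8, 68.0 and 66.8 FPKM in control libraries. The order of the groups was the same, and the log2 change of 0.15 ± 0.05 (SE) had an adjusted p of 0.0854. That adjusted p was 0.0128 without experimental library 1 and 0.0499 with median-of-ratios scaling. With experimental library 1 as the only experimental library the log2 change was 0.07. The difference between the passages was -0.16 on the log2 scale, with a 95% interval from -0.34 to 0.02 and an adjusted p of 0.221.

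Plod3 (ENSMUSG00000004846, chr5:136987019-136996648, plus strand) passed no test. Plod3 was at 50.1, 48.7, 48.5 and 47.6 FPKM in passage 1 experimental libraries and at 49.4, 51.0 and 50.5 FPKM in control libraries. At passage 6 it was at 113, 121 and 114 FPKM in experimental and 113, 113 and 110 FPKM in control libraries. The ranges overlapped at both passages, and the 95% intervals of the log2 change were -0.13 to 0.05 at passage 1 and -0.06 to 0.15 at passage 6. The sign at passage 1 turned with scaling, from -0.04 as deposited to 0.0068 with median-of-ratios scaling. Between the passages the change differed by 0.09, with a 95% interval from -0.03 to 0.21 (adjusted p = 0.306).

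Crtap (ENSMUSG00000032431, chr9:114375134-114390675, minus strand) encodes the helper protein of the complex with P3h1 and the isomerase Ppib that carries out prolyl 3-hydroxylation at a few sites of the chain. Crtap was at 46.8, 47.9, 46.2 and 45.9 FPKM in passage 1 experimental libraries and at 49.7, 48.1 and 46.4 FPKM in control libraries. These ranges overlapped, with a log2 change of -0.04 (adjusted p = 0.496) that was 0.0026 once FPKM totals were made equal and 0.0111 under median-of-ratios scaling. At passage 6, Crtap was at 84.5, 90.8 and 85.7 FPKM in experimental libraries, against 70.3, 72.0 and 69.8 FPKM in control libraries. Every experimental library lay above the controls, and the log2 change was 0.29 ± 0.05 (SE; adjusted p = 0.00806). It was 0.25 with experimental library 1 alone, and without control library 3 the adjusted p was 0.0511. Crtap was the 1 gene of the 10 for which a higher change at passage 6 than at passage 1 passed the test, by 0.33 ± 0.06 (SE; adjusted p = 0.00396).

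**Figure D2:**
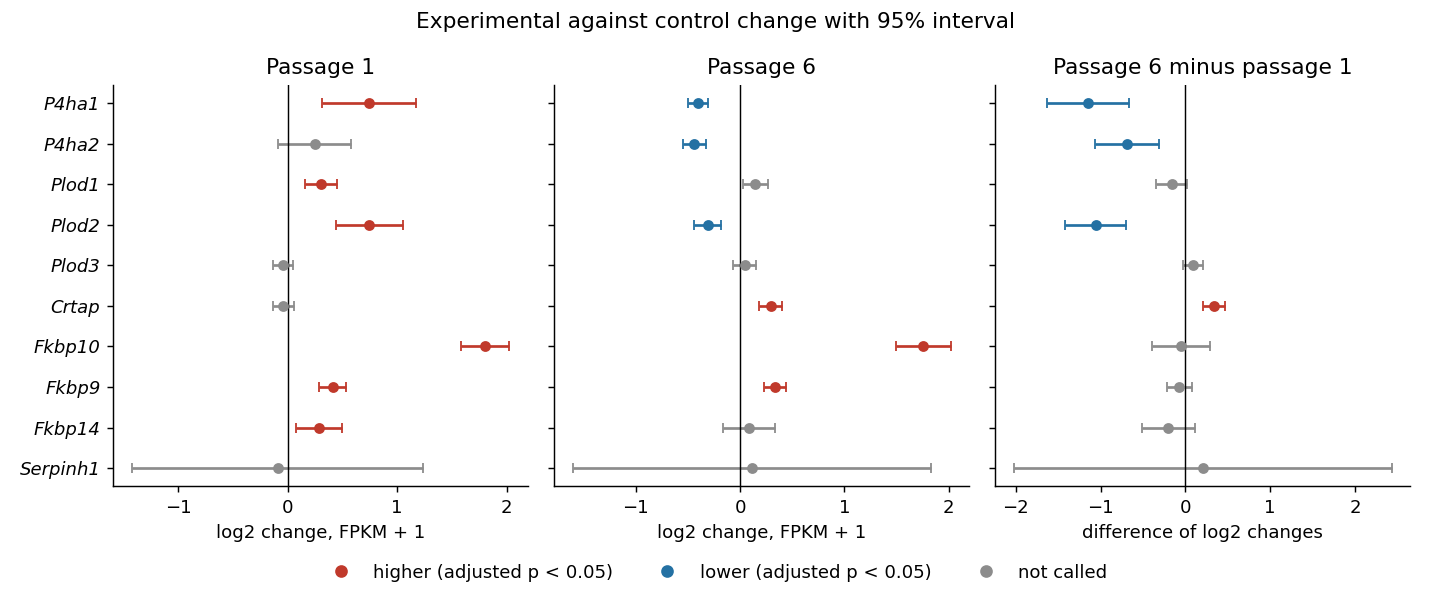
Log2 change of each gene, experimental over control on the FPKM + 1 scale, with 95% intervals, at passage 1, at passage 6 and as the difference between them. P4ha1, P4ha2 and Plod2 lie right of 0 at passage 1 (P4ha2 with an interval that reaches 0) and left of 0 at passage 6, whereas Fkbp10 lies at 1.81 at passage 1 and 1.75 at passage 6.

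The largest change at each passage was in Fkbp10 (ENSMUSG00000001555, chr11:100415697-100424824, plus strand). Its product, FKBP65, binds collagen in the endoplasmic reticulum and is needed for lysyl hydroxylase 2, the Plod2 product, to work on telopeptides. Loss of either gene in humans gives brittle bones with joint contractures. Fkbp10 was at 12.6, 12.9, 12.4 and 13.5 FPKM in passage 1 experimental libraries, against 2.36, 3.51 and 3.08 FPKM in control libraries. The 4 experimental libraries lay close together and far above the controls, with a mean of 12.8 ± 0.49 FPKM (SD, n = 4) against 2.99 ± 0.58 FPKM (SD, n = 3), a ratio of means of 4.30. The log2 change was 1.81 ± 0.10 (SE), 3.50-fold on the FPKM + 1 scale, with an adjusted p of 3.11e-05.

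At passage 6, Fkbp10 was at 15.9, 19.7 and 21.0 FPKM in experimental libraries, against 4.32, 4.93 and 5.39 FPKM in control libraries. Again the groups were far apart, with experimental library 1 the lowest of its group. The log2 change was 1.75 ± 0.11 (SE; adjusted p = 0.00082), and 1.53 with that library as the only experimental one. Fkbp10 ranked 8 of 12469 genes by the size of its rise at passage 1 and 9 of 12458 at passage 6. The difference between the passages was -0.05, with a 95% interval from -0.39 to 0.29 (adjusted p = 0.849). The rise passed in all 20 alternatives at passage 1 and all 18 at passage 6. Among passage 1 libraries with cartilage transcripts it was 1.67 (adjusted p = 0.000849).

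Nt5c3b, a nucleotidase gene on the other strand, overlaps the Fkbp10 gene span by 2504 bases, introns included. The libraries kept strand, per the labels, but whether the counting used it is not given in the sources used here. Nt5c3b was at 15.7, 17.1, 15.7 and 15.9 FPKM in passage 1 experimental libraries, against 20.4, 18.6 and 18.4 FPKM in control libraries. It fell by 0.24 on the log2 scale (adjusted p = 0.0145) at passage 1, and its change at passage 6 was 0.13 (adjusted p = 0.199), whereas Fkbp10 rose at both passages. Opposite-strand genes also overlap the spans of Plod3 (Znhit1, 1003 bases), Fkbp14 (Plekha8, 2198 bases), Crtap (4930520O04Rik, 2096 bases) and Plod2 (Gm38391, 647 bases).

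Fkbp9 (ENSMUSG00000029781, chr6:56832059-56879358, plus strand) encodes another FK506-binding isomerase of the endoplasmic reticulum, similar to FKBP65 in its repeated isomerase domains. Fkbp9 was at 46.3, 45.7, 46.0 and 47.6 FPKM in passage 1 experimental libraries, against 32.6, 37.3 and 34.3 FPKM in control libraries. At passage 6 it was at 84.7, 83.8 and 87.7 FPKM in experimental libraries, against 68.2, 68.5 and 65.3 FPKM in control libraries. Experimental libraries were above controls without overlap at both passages, as for Fkbp10, though the size was smaller. The log2 change was 0.41 ± 0.05 (SE; adjusted p = 0.00138) at passage 1 and 0.34 ± 0.04 (SE; adjusted p = 0.00463) at passage 6, and it passed in every alternative run at each passage. The difference between the passages was -0.07, with a 95% interval from -0.22 to 0.08.

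Fkbp14 (ENSMUSG00000038074, chr6:54577604-54597308, minus strand) encodes the small isomerase FKBP22, whose loss in humans gives a form of Ehlers-Danlos syndrome. Fkbp14 was at 2.05, 2.21, 2.88 and 2.49 FPKM in passage 1 experimental libraries, against 1.80, 1.70 and 1.83 FPKM in control libraries. The groups did not overlap, and the log2 change was 0.29 ± 0.09 (SE; adjusted p = 0.0449). The call was lost without control library 1, 2 or 3 (adjusted p = 0.112, 0.138 and 0.106), without experimental library 3 or 4 (0.059 and 0.1), among the libraries with cartilage transcripts (0.208), with the tissue sums as covariates (0.204) and with no filter (0.12). At passage 6, Fkbp14 was at 3.39, 2.93 and 3.96 FPKM in experimental libraries and at 3.60, 2.97 and 2.92 FPKM in control libraries. The ranges overlapped there (log2 change 0.09, adjusted p = 0.597). Between the passages the Fkbp14 change differed by -0.20, with a 95% interval from -0.51 to 0.11 (adjusted p = 0.37).

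Serpinh1 (ENSMUSG00000070436, chr7:99345376-99353239, minus strand) had the widest spread of the 10 within groups. Serpinh1 was at 5.52, 5.13, 6.03 and 0.923 FPKM in passage 1 experimental libraries and at 1.20, 6.61 and 7.11 FPKM in control libraries. At passage 6 it was at 1.02, 14.5 and 13.1 FPKM in experimental and 4.74, 5.82 and 7.90 FPKM in control libraries. Experimental library 4 and control library 1 of passage 1, and experimental library 1 of passage 6, were the low ones. The groups overlapped at both passages, and the log2 changes were -0.09 (95% interval -1.42 to 1.24, adjusted p = 0.917) and 0.11 (95% interval -1.60 to 1.83, adjusted p = 0.929).

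The same 3 libraries were lowest in Col1a1, the alpha 1 chain of type I collagen. Col1a1 was at 2.89, 2.77, 3.57 and 0.462 FPKM in passage 1 experimental libraries and at 0.047, 4.65 and 4.29 FPKM in control libraries. At passage 6 it was at 0.265, 90.8 and 82.1 FPKM in experimental and 2.24, 2.66 and 4.92 FPKM in control libraries. Serpinh1 and Col1a1 were therefore both highest in passage 6 experimental libraries 2 and 3, the libraries with the high liver and brain sums. The 14 cartilage markers summed to 37.8, 38.6, 42.6 and 16.7 FPKM in passage 1 experimental and 12.9, 54.3 and 53.0 FPKM in control libraries, and to 22.3, 22.6 and 26.2 FPKM in passage 6 experimental and 38.9, 47.0 and 62.2 FPKM in control libraries.

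The 10 fibroblast markers were dominated by Fbln1, at 116 to 378 FPKM in every library. Without Fbln1, a step chosen after its values were seen, they summed to 8.19, 8.17, 9.00 and 2.12 FPKM in passage 1 experimental and 1.12, 11.7 and 10.8 FPKM in control libraries. At passage 6 the sum was 2.46, 157 and 139 FPKM in experimental and 6.96, 8.63 and 13.2 FPKM in control libraries. Col3a1 and Lum were at 0 in passage 1 experimental library 4, and Mmp2 and Postn in passage 1 control library 1. The part of other tissues' RNA in the Serpinh1 values was not tested. Left out of the passage 6 comparison, experimental library 1 turned the Serpinh1 change to 1.07 (adjusted p = 0.00448), and experimental libraries 2 and 3 together turned it to -1.80. Each of these values rests on which libraries are kept.

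**Figure D3:**
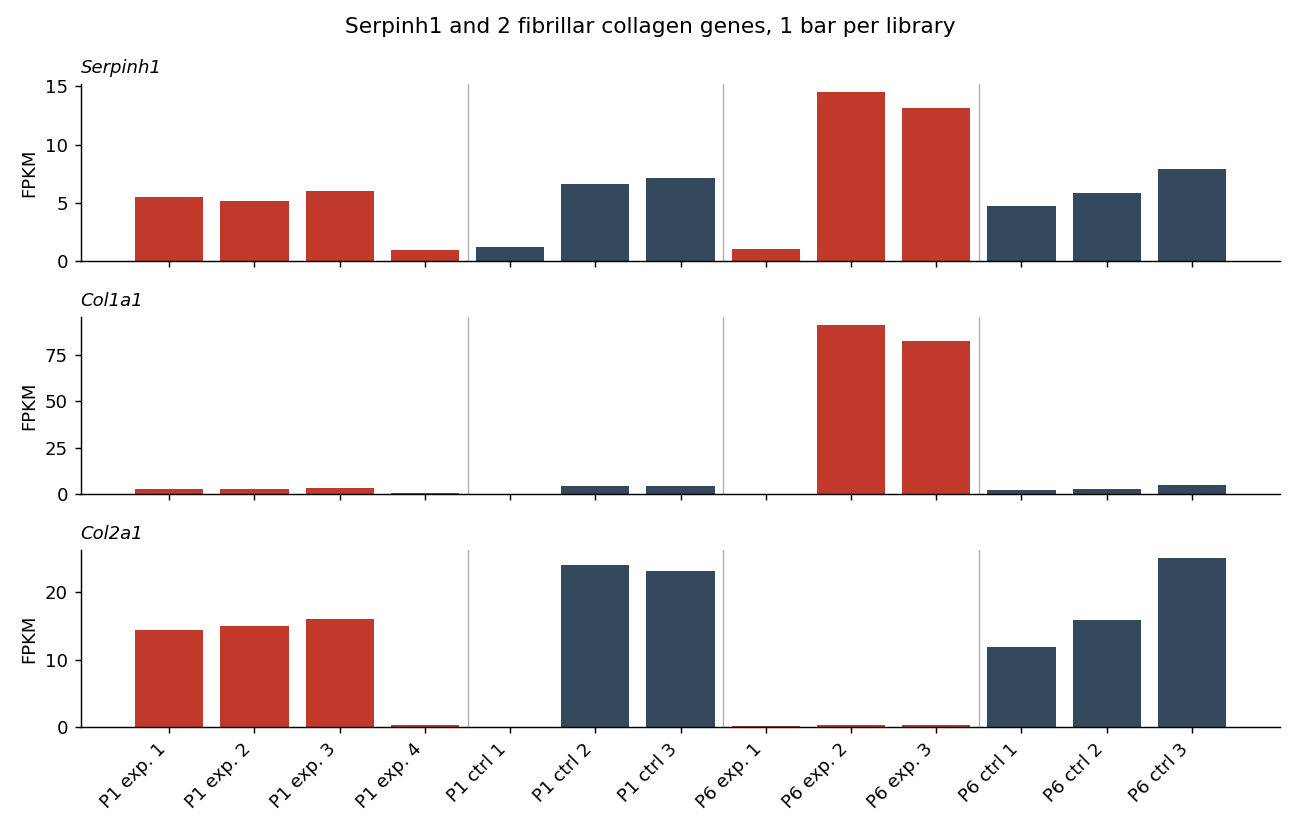
FPKM of Serpinh1, Col1a1 and Col2a1, 1 bar per library, experimental (exp.) in red and control (ctrl) in dark blue at passages 1 (P1) and 6 (P6). The 3 libraries with the lowest Serpinh1, at 0.923, 1.20 and 1.02 FPKM, are also the lowest in Col1a1 and Col2a1 for their passage, and passage 6 experimental libraries 2 and 3 are high in Serpinh1 and Col1a1 but not in Col2a1, at 0.304 and 0.325 FPKM.

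The 4 experimental libraries of passage 1 differed from each other in some of these genes and hardly in others. The highest library was 1.93 times the lowest for P4ha1, 1.68 times for P4ha2, 1.59 times for Plod2 and 1.20 times for Plod1. For Fkbp10 it was 1.09 times and for Fkbp9 1.04 times. In P4ha1, Plod1 and Plod2, experimental library 2 was lowest, then 1, then 4, and library 3 was highest. P4ha2 also had library 2 lowest and library 3 highest, while Fkbp10 had library 3 lowest and library 4 highest. Library 3 had the lowest colon sum of the 4 at 8.45 FPKM, against 265, 241 and 121 FPKM in libraries 1, 2 and 4, and its part in the order was not tested.

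The same order of libraries was found in 12 of 15 listed genes that low oxygen induces through hypoxia-inducible factors. Of the other 3, Ldha and Mxi1 also had library 2 lowest and library 3 highest, and Car9 had library 4 lowest and library 1 highest. How many of all genes share this order was not counted. Over genes at 1 FPKM or more in at least 3 libraries, libraries 2 and 3 were the least alike pair of the 4 (r = 0.977). Bnip3, a mitophagy receptor, was at 60.7, 28.7, 92.7 and 70.4 FPKM in passage 1 experimental libraries, against 16.1, 17.4 and 15.6 FPKM in control libraries. At passage 6 it was at 8.09, 6.90 and 7.99 FPKM in experimental libraries, against 11.6, 13.4 and 13.2 FPKM in control libraries. Of the 14 listed genes tested at passage 1, 9 rose, against 11.5% of all genes, with a median log2 change of 0.86 over the list. Among the 9 were Bnip3 (1.77), the carbonic anhydrase Car12 (1.31), the lactate exporter Slc16a3 (1.29) and the pyruvate dehydrogenase kinase Pdk1 (1.14). Among the libraries with cartilage transcripts 3 of 14 rose, with a median of 0.83. At passage 6, 6 of 12 fell, against 10.8% of all genes, led by Ankrd37 (-0.76), Bnip3 (-0.67), Ddit4 (-0.37) and the glycolytic enzyme Pgk1 (-0.34). The difference between the passages was lower in 11 of 14, with a median of -1.07, and in 5 of 14 without passage 6 experimental libraries 2 and 3. Over all genes it was lower in 6.27% and higher in 8.46% of the 13019 tested, 14.7% in all. In that contrast 3 of the 10 collagen enzyme genes were lower and 1 was higher, with a median of -0.12, against 0.02 over all genes. The share of the hypoxia-induced pattern in the collagen enzyme values was not tested.

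**Figure D4:**
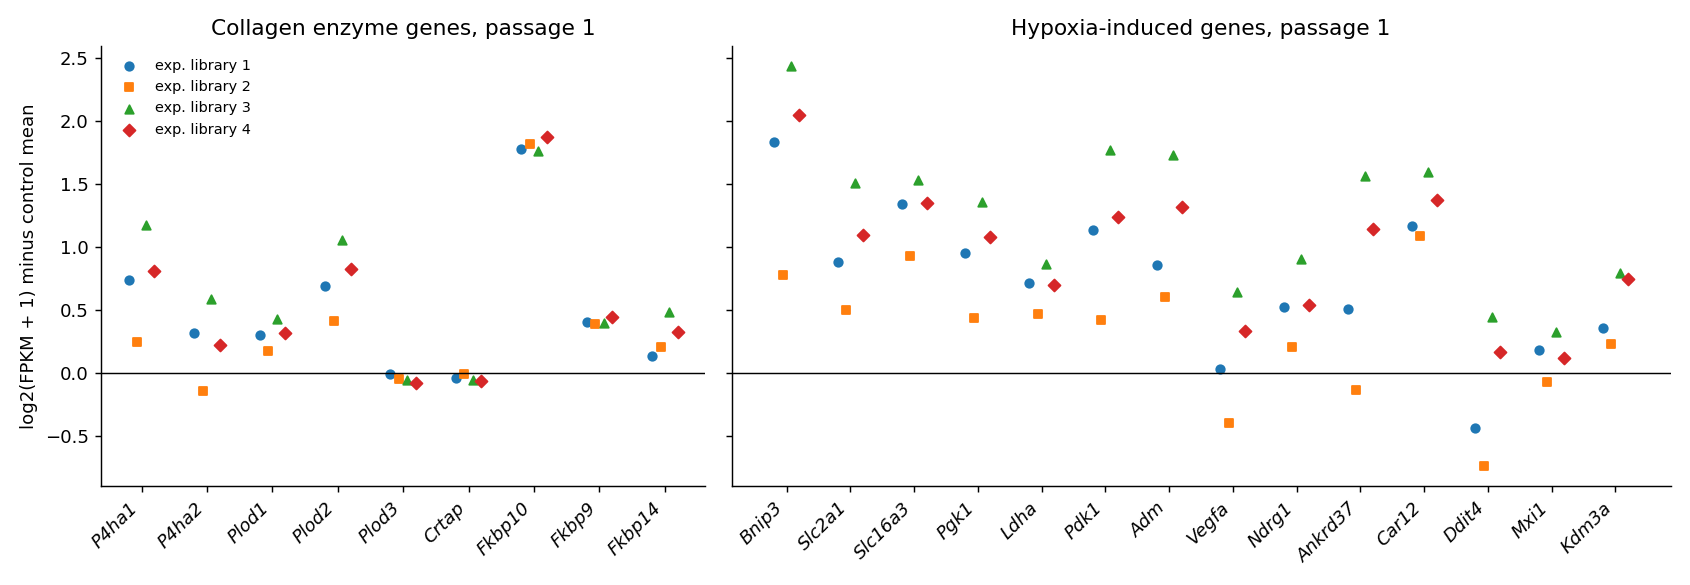
Difference of log2(FPKM + 1) from the control mean in each of the 4 experimental libraries (exp.) of passage 1, for 9 collagen enzyme genes (Serpinh1 is left out) and the 14 hypoxia-induced genes tested. Library 3 is highest and library 2 lowest for P4ha1, P4ha2, Plod1, Plod2 and most hypoxia-induced genes, while the 4 libraries lie together for Fkbp10, Fkbp9, Plod3 and Crtap.

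Likeness of pattern was measured by Pearson's r of log2(FPKM + 1) over the 13 libraries, each value centred on the mean of its own passage table, among 7531 genes with a mean of at least 5 FPKM. The libraries share their group structure, so for genes with large group changes, such as Fkbp10, r reflects mostly the 4 group means. For Serpinh1, with log2 changes of -0.09 and 0.11, r rests mostly on the spread between libraries within groups. The gene most like Plod2 was Bnip3 (r = 0.986), followed by P4ha1 (0.982) and Pgk1 (0.976). The genes most like P4ha1 were Plod2 (0.982), Plekha2 (0.980) and Vwa1 (0.979), and Mxi1, one of the listed hypoxia-induced genes, was the most like P4ha2 (0.945). Fkbp10 stood with other genes: the growth factor binding protein gene Igfbp5 (0.994), the smooth muscle actin gene Acta2 (0.992) and the receptor gene Fgfr1 (0.988).

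Acta2 averaged 213 FPKM in experimental and 12.7 FPKM in control libraries at passage 1, and 87.8 FPKM in experimental and 8.20 FPKM in control libraries at passage 6. Fkbp9 was most like Fzd7 (0.981) and Fkbp10 (0.979). Thbs1, the thrombospondin 1 gene, was the most like Serpinh1 (0.988), followed among the genes compared by Col1a1 (0.858). Col1a1 passed the limit on mean FPKM only through passage 6 experimental libraries. It averaged 57.7 FPKM there and at most 3.28 FPKM in any other group. Col1a2 had a higher r with Serpinh1 (0.893) but was not among the genes compared, so the place of Col1a1 depends on that limit. Plod1 was most like Arhgap39 (0.978), Crtap like Wsb2 (0.954), Plod3 like Mgat1 (0.947) and Fkbp14 like Camsap1 (0.933). Within the 10 genes, r was 0.870 between P4ha1 and P4ha2 and 0.301 between P4ha1 and Fkbp10, and it was -0.708 between P4ha2 and Crtap.

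Genes around the 10 were taken as lists by role, from the partner enzymes to the collagens. Over all genes tested, 11.5% rose and 18.9% fell at passage 1, and 8.98% rose and 10.8% fell at passage 6. The counts of this list and of those below are to be read beside these shares, and no list was tested as a set. Of 10 partner enzymes tested at passage 1, 2 rose and 1 fell. P3h4, whose product works with P3h3 and lysyl hydroxylase 1, was at 14.4, 14.2, 16.2 and 15.5 FPKM in experimental libraries, against 9.74, 10.8 and 9.88 FPKM in control libraries, a log2 change of 0.53. P3h1, the enzyme that Crtap assists, rose by 0.30, and P3h3 fell by 0.37. At passage 6, 2 of 11 rose, P3h4 (0.26) and Colgalt1 (0.22), the galactosyltransferase that acts on hydroxylysine, and P3h3 fell by 0.20.

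Of 14 genes of collagen export, 1 rose at passage 1, Kdelr3 (1.10, and 0.96 with an adjusted p of 0.0622 among the libraries with cartilage transcripts), a receptor that returns resident proteins to the endoplasmic reticulum, and Mia2 fell by 0.23. At passage 6, Mia2 (0.44), which helps load large cargo at exit sites, and Kdelr1 (0.18) rose, and the coat gene Sec24a fell by 0.36. Of 5 genes of propeptide cleavage and crosslinking tested at passage 1, 3 rose. Bmp1, the proteinase that cuts the C-terminal propeptide, was at 12.0, 10.4, 11.4 and 11.2 FPKM in experimental libraries, against 4.90, 5.24 and 5.31 FPKM in control libraries, and rose by 0.99. Loxl2, a lysyl oxidase that starts crosslinks, was at 48.3, 45.7, 60.2 and 53.1 FPKM in experimental libraries, against 24.7, 27.6 and 26.0 FPKM in control libraries, and rose by 0.96. Furin rose by 0.31. At passage 6, Bmp1 (0.45) and Furin (0.24) rose and Loxl3 fell by 0.26, of 6 tested.

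Few of the collagen genes passed the test at passage 1. Of 6 fibrillar collagen genes tested, 0 rose and 0 fell in limma's test at the adjusted threshold, and 1, Col5a3, was higher at an unadjusted p under 0.05. Col2a1 had a log2 change of -0.0084 ± 1.30 (SE) there and Col1a1 of -0.0016 ± 0.63 (SE). With errors this wide, large changes of these genes in either direction are not excluded. At passage 6, 3 of 8 fell, Col2a1 (-3.81), Col11a1 (-1.13) and Col11a2 (-0.47). Col2a1, Col11a2 and Col9a1 are also cartilage markers, and the cartilage sums given beside Serpinh1 were lower in all 3 experimental than in the control libraries of that passage. Of 9 other collagen genes tested, 2 rose at passage 1, Col14a1 (1.54) and Col7a1 (0.46), and at passage 6 Col14a1 rose (0.45) and 4 fell, Col9a1 (-1.47), Col18a1 (-0.57), Col4a2 (-0.33) and Col4a1 (-0.28). Col4a2, a basement membrane chain, was the most abundant collagen transcript listed, at 271, 281 and 278 FPKM in passage 6 experimental libraries, against 355, 349 and 337 FPKM in control libraries. These groups did not overlap.

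Other isomerases and general folding genes come last. Of 10 other FKBP genes tested at passage 1, 3 fell, Fkbp2 (-0.52), Fkbp11 (-0.28) and Fkbp3 (-0.28). At passage 6 Fkbp4 rose (0.21) and Fkbp11 fell by 0.31. Of 17 general folding genes of the endoplasmic reticulum, 1 fell at passage 1, Sdf2l1 (-0.26), and 1 rose at passage 6, Dnajb11 (0.24). The chaperone Hspa5 did not pass at either passage (log2 change -0.0045 and -0.15, adjusted p = 0.971 and 0.0801). Among 7 other 2-oxoglutarate oxygenases tested, Egln1, an oxygen-sensing hydroxylase that marks hypoxia-inducible factors, rose by 0.49 and Asph by 0.38 at passage 1, and Ogfod1 fell by 0.24. At passage 6, P4htm (0.39), Egln2 (0.26) and Egln1 (0.19) rose. Of 9 heat shock genes tested, 3 fell at passage 1, Hsp90aa1 (-0.41), Hsph1 (-0.39) and Hspa8 (-0.33), and Hsp90ab1 (0.27) and Hspa8 (0.22) rose at passage 6.

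**Figure D5:**
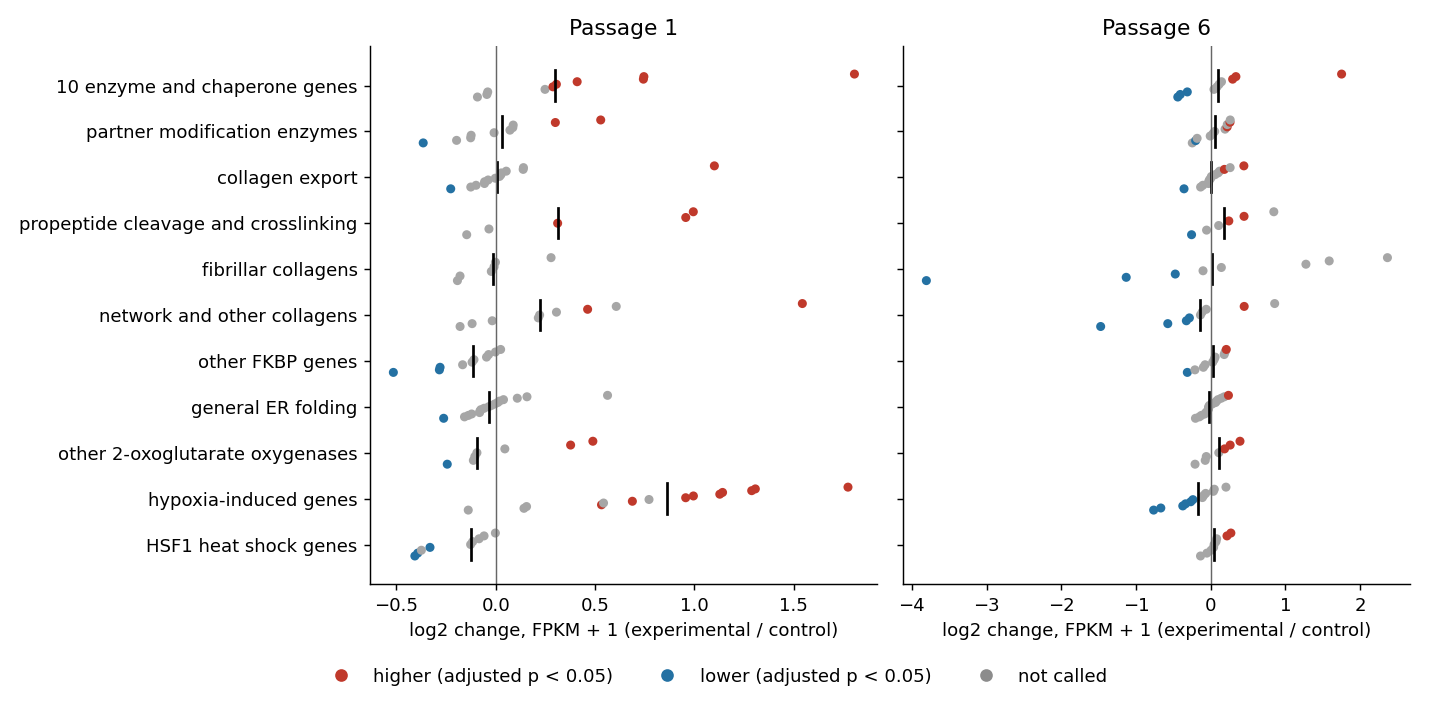
Log2 change, experimental over control, of every tested gene in each list at passage 1 and passage 6, with genes that passed the test in red (higher) or blue (lower) and a black bar for the median of each list. The hypoxia-induced genes lie mostly right of 0 at passage 1 and mostly at or left of 0 at passage 6, where Car12 lies at 0.21. Most general folding genes lie near 0 at both, and Ero1a lies at 0.56 at passage 1 without passing the test.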

How the data were processed

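RNA of Neuro2a cells was measured in 13 libraries. The authors deposited FPKM for 34857 Ensembl genes in 1 table per passage, and the tools named without versions in the submitters' processing notes are HISAT2, StringTie, cutadapt, edgeR and DESeq2, with the mm10 build. How FPKM were scaled between libraries and whether counting used strand are not given in the sources used here. FPKM hold no read counts, so depth is unknown and precision rests on the spread between libraries. All 13 value columns were used, and 1 gene with an empty cell was left out.

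Gene symbols and coordinates came from GENCODE on GRCm38 (34730 identifiers matched), promoters from RefSeq on GRCm38.p6. On the scale log2(FPKM + 1), computed from the deposited values, limma (version 3.58.1, R version 4.3.3, trended variance) was fitted to each passage alone. Genes reaching 1 FPKM in 3 or more libraries were tested, two-sided, with Benjamini-Hochberg adjustment over all genes and a threshold of 0.05. Fold changes include the added 1 FPKM and so understate changes of low genes. The difference between passages was a contrast over the 13 libraries. Python 3.11.15 with pandas 2.3.3 and matplotlib 3.10.9 made the other tables and figures, and the fits were tested on simulated data.

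Members, lists and tests were chosen with earlier results of these data known. All 10 members are named, with up to 4 genes per list that passed the test at a passage, or the most abundant where none did. P4hb, Hspa5 and Col5a3, the overlapping genes, and the per-library values of Bnip3, P3h4, Bmp1, Loxl2 and Col4a2 were chosen in addition. Replicate numbers were not used as pairs: correlations of deviations between same-numbered libraries were 0.166, -0.192 and 0.239 at passage 1 and -0.066, -0.06 and 0.033 at passage 6. Alternatives were a pseudocount of 0.1 or 5, a filter at 5 FPKM or none, 3 other scalings, limma without trend or robust, the replicate block, 1 fit over all libraries, subsets of libraries, tissue sums as covariates, and each library left out.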

Additional observations from a re-analysis of the deposited data

Results flagged for a closer look

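The change between experimental and control libraries differed between passage 6 and passage 1 for 4 of the 10 genes, by the direct test of that difference (limma, adjusted over 13019 genes). On the log2 scale it was lower at passage 6 by -1.15 for P4ha1 (adjusted p = 0.00606), by -1.06 for Plod2 (adjusted p = 0.00198) and by -0.69 for P4ha2 (adjusted p = 0.022). For Crtap it was higher at passage 6, by 0.33 (adjusted p = 0.00396). The P4ha1 and Plod2 values were above every control in 4 of 4 experimental libraries at passage 1 and below every control in 3 of 3 at passage 6. A library standing apart was looked for only in the passage 1 experimental group, which has 4 libraries, by the gap to the nearest library as a share of the group's range, against Dixon's 95% critical value. On the FPKM scale 0 of the 10 genes passed it, with Serpinh1 just under it at 0.823. On the log2(FPKM + 1) scale used for the tests 1 did, Serpinh1 at 0.894, with experimental library 4 low at 0.923 FPKM. Chance gives such a gap in about 1 in 20 groups.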

How the results depend on the processing

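With the replicate number as a block, which does not pair these libraries, 4 of the 10 genes rose at passage 1, 3 rose and 3 fell at passage 6, and the difference between passages was higher in 1 and lower in 2, while calls over all genes were 1813, against 3792 without the block, at passage 1 (where experimental library 4 has no control of its number and adds nothing under the block, and 2850 genes passed without that library and with no block), 1438, against 2462, at passage 6, and 728, against 1918, for the difference. Among the passage 1 libraries with cartilage transcripts 2 genes rose (Fkbp10 and Fkbp9), of 976 calls in all. In 1 fit over all libraries 3 genes rose and 1 fell (P4ha2) at passage 6. Over all 12458 genes tested in that fit 1330 rose and 1617 fell, against 1119 and 1343 in the fit of passage 6 alone. Leaving out each library in turn gave 4 to 7 genes that rose at passage 1, 2 to 5 that rose and 2 to 3 that fell at passage 6, and 1 higher and 2 to 3 lower differences, with 2053 to 4069, 670 to 4257 and 1160 to 2547 calls over all genes. The 5 came without passage 6 experimental library 1, where Plod1 and Serpinh1 were added. With no filter, calls over all genes were 1286 at passage 6 and 1185 for the difference.

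Some changes that passed no test turned sign. Passage 1 values turned to 0.0068 for Plod3 with median-of-ratios scaling, to 0.0026 and 0.0111 for Crtap with equal totals and median-of-ratios scaling, and to 0.35 for Serpinh1 with the replicate block (-0.71 to 0.35 over left-out libraries). Serpinh1 at passage 6 was -0.0295 with a pseudocount of 0.1, -1.80 without experimental libraries 2 and 3, and -0.40 to 1.07 over left-out libraries. The difference between passages turned to 0.11 for Fkbp10 with a pseudocount of 5 (-0.1479 to 0.0651 over left-out libraries), and for Serpinh1 to -0.24 with the replicate block and -1.71 without passage 6 experimental libraries 2 and 3 (-0.31 to 1.16 over left-out libraries). A lone library is assumed there to vary like the other groups. The cause was not tested for any of these. Depth is unknown, so how far counting error limits low genes such as Fkbp14 cannot be given.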
